A study of Bos taurus with 8 samples.

Results

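The genes described here encode proteins of the accessory structures of the sperm tail. They were taken by symbol from the gene table, and 10 of the 30983 genes listed were members: ODF1, ODF2, ODF3 and ODF4 of the outer dense fibers, AKAP3, AKAP4, ROPN1, ROPN1L and CABYR of the fibrous sheath, and SMCP of the mitochondrial sheath. All 10 members passed the filter on low counts and were among the 19972 genes tested. Testes from the Chinese Red Steppes breed were compared between mature animals, 24 months old and slaughtered (mature group), and immature animals, calves castrated at 1 day of age (immature group). Each group had 3 animals and 1 mRNA library per animal, so the p-values rest on the spread between animals. Age and the manner of collection cannot be told apart. Levels are CPM, counts brought to a common library size with the trimmed mean of M values (TMM), and CPM are not corrected for gene length, so no levels are ranked between genes.

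A mammalian sperm tail carries its axoneme in the middle, surrounded in the midpiece and principal piece by outer dense fibers, which stiffen the tail. In the principal piece a fibrous sheath wraps the fibers and holds kinase anchors, calcium-binding proteins and enzymes of glycolysis, while in the midpiece a sheath of mitochondria takes its place. Spermatids build these structures after meiosis, and a newborn calf testis holds Sertoli cells, gonocytes and interstitial cells but no spermatids. The tissue markers followed the labels: the summed CPM of 6 spermatid genes (PRM1, TNP1, TNP2, ACRV1, SPACA1 and HMGB4) lay between 7773 and 12771 in mature libraries and between 5.43 and 5.70 in immature libraries, and that of 6 Sertoli cell genes lay between 1404 and 1569 in mature libraries and between 9725 and 13161 in immature libraries. In such bulk tissue, fewer cells of a type and less RNA per cell cannot be told apart. Library totals ran from 14139087 to 15846257 counts. Immature replicates 1 and 3 stood apart from the other libraries, with 194 and 170 genes that reached 5 CPM and exceeded 3 times the level of the other libraries of their group, against 11 to 21 such genes in each of the remaining libraries. None of these was a member (0 members in each of the 6 libraries).

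All 10 members were higher in mature testis, where 31.7% of all genes tested were called higher. The call needed an adjusted p under 0.05 (Benjamini-Hochberg over all genes tested, edgeR quasi-likelihood test) with the log2 fold change beyond 1 in size. The median log2 fold change of the members, mature over immature, was 8.73, against −0.04 over all genes tested. In every member each mature library was above each immature library, a separation in this direction that 40.9% of all genes tested showed. SMCP ranked 22nd and ODF1 ranked 45th of all genes tested by log2 fold change, and the member with the smallest change, ODF2, still ranked 1192nd. Together the members held 0.809%, 0.8995% and 0.985% of the counts of mature replicates 1, 2 and 3, against 0.00994%, 0.00963% and 0.00975% of those of immature replicates 1, 2 and 3.

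**Figure D1:**
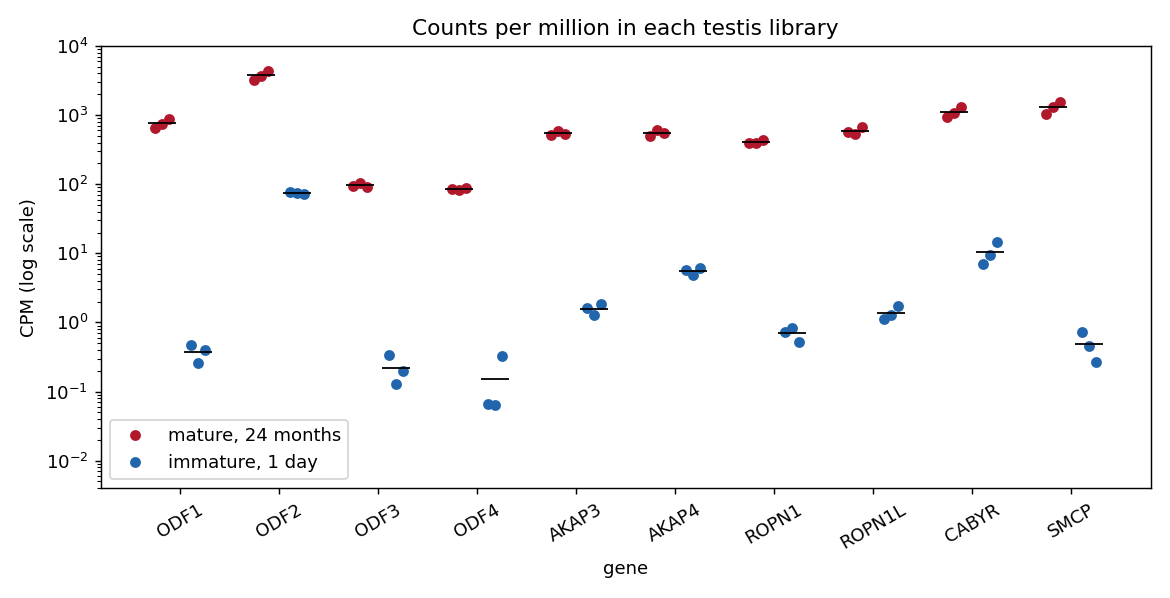
Level of each gene in CPM (log scale) in the 3 mature libraries (red, left) and the 3 immature libraries (blue, right), with black lines at the group means. The groups are apart in all 10 genes, and the immature values of ODF2 lie between 72.8 and 76.4 CPM.

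Among the outer dense fiber genes, ODF1 changed most. ODF1 encodes a cysteine-rich main protein of the fibers. It had 649, 745 and 888 CPM in mature replicates 1, 2 and 3, against 0.469, 0.259 and 0.397 CPM in immature replicates 1, 2 and 3. The immature values rested on 7, 4 and 6 counts and the groups were far apart. Its log2 fold change was 10.96 (SE 0.24, adjusted p = 1.38e-08, edgeR).

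ODF2 encodes the other main protein of the fibers, and other products of the gene belong to the appendages of centrioles in many cell types. It had 3263, 3707 and 4351 CPM in mature replicates 1, 2 and 3, against 76.4, 75.5 and 72.8 CPM in immature replicates 1, 2 and 3. The immature libraries were close together, with a coefficient of variation of 2.47%, and each had over 1000 counts (1140, 1165 and 1100). For ODF2 the log2 fold change came to 5.66 (SE 0.15, adjusted p = 2.27e-08, edgeR), the smallest among the members. Of all counts on the members, ODF2 took 40.6%, 40.6% and 41.4% in mature replicates 1, 2 and 3, against 81.1%, 80.2% and 73.5% in immature replicates 1, 2 and 3. The gene table gives 1 value per gene, so its centriolar and tail products were not separated.

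ODF3 was matched by symbol only, and the protein of that name has short repeats and is found along the fibers. ODF3 had 94.0, 105 and 90.6 CPM in mature replicates 1, 2 and 3, against 0.335, 0.130 and 0.199 CPM in immature replicates 1, 2 and 3. The groups did not overlap, and the immature values came from 5, 2 and 3 counts. Its log2 fold change was 8.73 (SE 0.24, adjusted p = 2.27e-08, edgeR). ODF4, a testis protein of the fibers, had 84.7, 83.0 and 87.6 CPM in mature replicates 1, 2 and 3, against 0.0670, 0.0648 and 0.331 CPM in immature replicates 1, 2 and 3. It was the most even member among mature animals, with a coefficient of variation of 2.72%, while the immature libraries held only 1, 1 and 5 counts. The log2 fold change of ODF4 was 9.04 (SE 0.32, adjusted p = 7.76e-08, edgeR).

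The 2 kinase anchors of the fibrous sheath, AKAP3 and AKAP4, tether protein kinase A (PKA) along the principal piece, and AKAP4, a gene of the X chromosome, is the main structural protein of the sheath. AKAP4 had 502, 605 and 559 CPM in mature replicates 1, 2 and 3, against 5.76, 4.79 and 6.16 CPM in immature replicates 1, 2 and 3. AKAP3 had 522, 583 and 540 CPM in mature replicates 1, 2 and 3, against 1.61, 1.30 and 1.85 CPM in immature replicates 1, 2 and 3. In either gene the groups were apart, and in either gene mature replicate 2 was the highest mature library and immature replicate 3 the highest immature library. The rise in log2 was 6.64 (SE 0.16, adjusted p = 1.50e-08, edgeR) for AKAP4 and 8.43 (SE 0.17, adjusted p = 1.12e-08, edgeR) for AKAP3.

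The balance of the 2 anchors differed between the ages. The log2 ratio of AKAP3 to AKAP4 counts was 0.06, −0.05 and −0.05 in mature replicates 1, 2 and 3, against −1.82, −1.86 and −1.71 in immature replicates 1, 2 and 3. The mean ratio was thus 1.78 higher on the log2 scale in mature testis, and the groups did not overlap (two-sided exact permutation test, p = 0.1, the smallest that 3 against 3 libraries can give). Over the 3 ratios of member pairs tested, the Benjamini-Hochberg adjusted value was 0.15.

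ROPN1 and ROPN1L, or ropporin and its relative, share a docking domain like that of the PKA regulatory subunit and bind AKAP3. ROPN1 had 396, 397 and 430 CPM in mature replicates 1, 2 and 3, against 0.737, 0.842 and 0.529 CPM in immature replicates 1, 2 and 3. ROPN1L had 567, 527 and 679 CPM in mature replicates 1, 2 and 3, against 1.14, 1.30 and 1.72 CPM in immature replicates 1, 2 and 3. The mature libraries of ROPN1 were nearly level, with a coefficient of variation of 4.73%, and those of ROPN1L were wider at 13.4%. The rise in log2 was 9.16 (SE 0.18, adjusted p = 9.83e-09, edgeR) for ROPN1 and 8.73 (SE 0.21, adjusted p = 1.50e-08, edgeR) for ROPN1L. The log2 ratio of ROPN1 to ROPN1L averaged −0.53 ± 0.13 in mature and −0.95 ± 0.60 in immature testis (SD, n = 3 each). The difference of 0.42 was within the spread of the immature libraries (two-sided exact permutation test, p = 0.3, adjusted over the 3 pairs 0.3).

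CABYR encodes a calcium-binding protein of the fibrous sheath that is phosphorylated on tyrosine as sperm capacitate. It had 931, 1061 and 1311 CPM in mature replicates 1, 2 and 3, against 6.97, 9.52 and 14.8 CPM in immature replicates 1, 2 and 3. The groups did not overlap, and immature replicate 3 was the highest immature library. The summed CPM of 6 spermatogonial genes (DDX4, DAZL, UCHL1, GFRA1, SOHLH2 and ZBTB16) was also highest there, at 248 in immature replicate 3 against 137 and 128 in immature replicates 1 and 2. So was that of the 6 peritubular and stromal genes, at 21729 in immature replicate 3 against 14238 and 10176 in immature replicates 1 and 2, and this was a library that stood apart in 170 genes. UCHL1, GFRA1 and ZBTB16 had 109, 33.7 and 44.8 CPM in immature replicate 3, against 53.6, 8.49 and 11.8 CPM in immature replicate 2. DDX4, DAZL and SOHLH2 differed less between these libraries, with 20.2, 34.5 and 5.29 CPM against 18.6, 30.4 and 4.92 CPM. The part of these differences in the CABYR values was not tested. The log2 fold change of CABYR was 6.72 (SE 0.32, adjusted p = 6.05e-07, edgeR).

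SMCP encodes a protein rich in cysteine and proline that sits at the outer membrane of sperm mitochondria. It had 1024, 1322 and 1568 CPM in mature replicates 1, 2 and 3, against 0.737, 0.454 and 0.265 CPM in immature replicates 1, 2 and 3. It was the member with the widest spread among mature animals, with a coefficient of variation of 20.9%, and its immature libraries held 11, 7 and 4 counts. For SMCP the log2 fold change came to 11.37 (SE 0.32, adjusted p = 2.95e-08, edgeR).

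**Figure D2:**
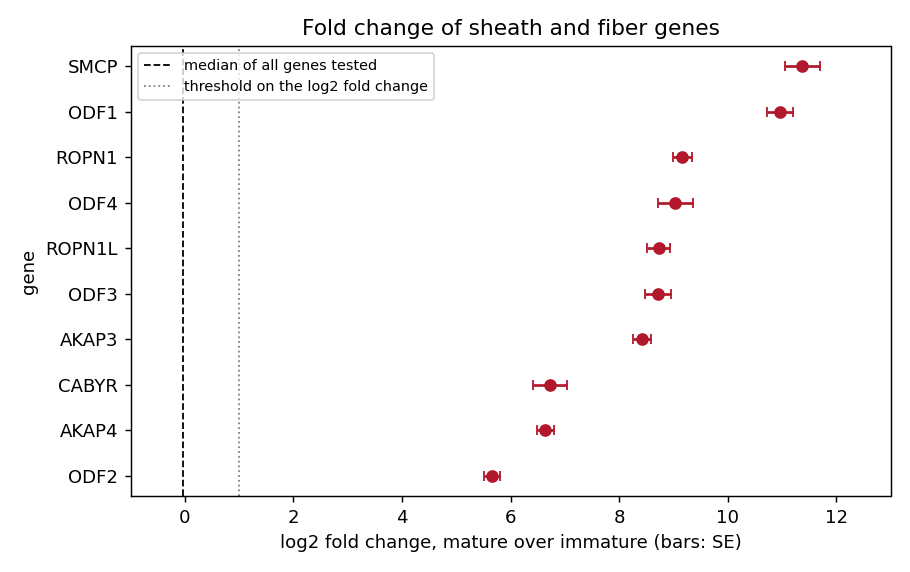
Log2 fold change, mature over immature, of each gene with its SE (edgeR), from the largest at the top to the smallest at the bottom. The members run from 11.37 (SMCP) to 5.66 (ODF2), while the median of all genes tested (dashed line) is at −0.04 and the threshold (dotted line) at 1.

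By size of change the members can be set in 3 steps, which were read off these same estimates. SMCP and ODF1 were at the top and the 5 genes ROPN1, ODF4, ROPN1L, ODF3 and AKAP3 lay between 9.16 and 8.43. CABYR, AKAP4 and ODF2 were at 6.72 and below. The gap between SMCP and ODF1 was 0.41 on the log2 scale, with an SE of 0.40 if the 2 estimates are taken as independent. Gaps between neighbours in the middle step were 0.13 (SE 0.37), 0.31 (SE 0.38), 0.00253 (SE 0.32) and 0.30 (SE 0.29), so these neighbours differed by about 1 SE or less. CABYR and AKAP4 were 0.09 (SE 0.35) apart. The steps themselves were wider, at 1.80 (SE 0.30) between ODF1 and ROPN1 and 1.70 (SE 0.36) between AKAP3 and CABYR. ODF2 lay 0.98 (SE 0.22) under AKAP4. The 2 main fiber proteins, ODF1 and ODF2, were the furthest apart of the pairs compared: the log2 ratio of ODF1 to ODF2 counts was −2.33, −2.31 and −2.29 in mature replicates 1, 2 and 3, against −7.25, −8.02 and −7.40 in immature replicates 1, 2 and 3. This ratio was nearly the same in the 3 mature animals, and the difference between the ages was 5.24 (two-sided exact permutation test, p = 0.1, the smallest possible, adjusted over the 3 pairs 0.15).

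The same changes can be turned around and given as the share of the mature level that was measured in the calves. This is not a separate result. Counts were summed over each group and scaled by library size, and the intervals are exact 95% intervals that cover counting error only. ODF2 stood at 1.99% of its mature level (1.93% to 2.06%), AKAP4 at 1.00% (0.884% to 1.14%) and CABYR at 0.952% (0.867% to 1.04%). The other 7 members were under 0.3%, from AKAP3 at 0.289% (0.226% to 0.364%) down to ODF1 at 0.0494% (0.0288% to 0.0791%) and SMCP at 0.0373% (0.0234% to 0.0565%). The interval of ODF4 (0.0727% to 0.373%) overlapped that of ODF1.

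The 2 lowest members lay beside genes of late male germ cells. The protamine PRM1, which packs sperm chromatin, stood at 0.0458%, TNP2, a transition protein of spermatid chromatin, at 0.0385%, HMGB4, a chromatin protein of spermatids, at 0.0375%, and the acrosomal protein ACRV1 at 0.0491%. TNP1, the other transition protein, was at 0.0821% and SPACA1, a protein of the acrosomal membrane, at 0.696%. The intervals of SMCP and ODF1 included the values of PRM1, TNP2, HMGB4 and ACRV1, and the intervals of the other 8 members lay above those values. The source of the few immature counts was not tested.

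**Figure D3:**
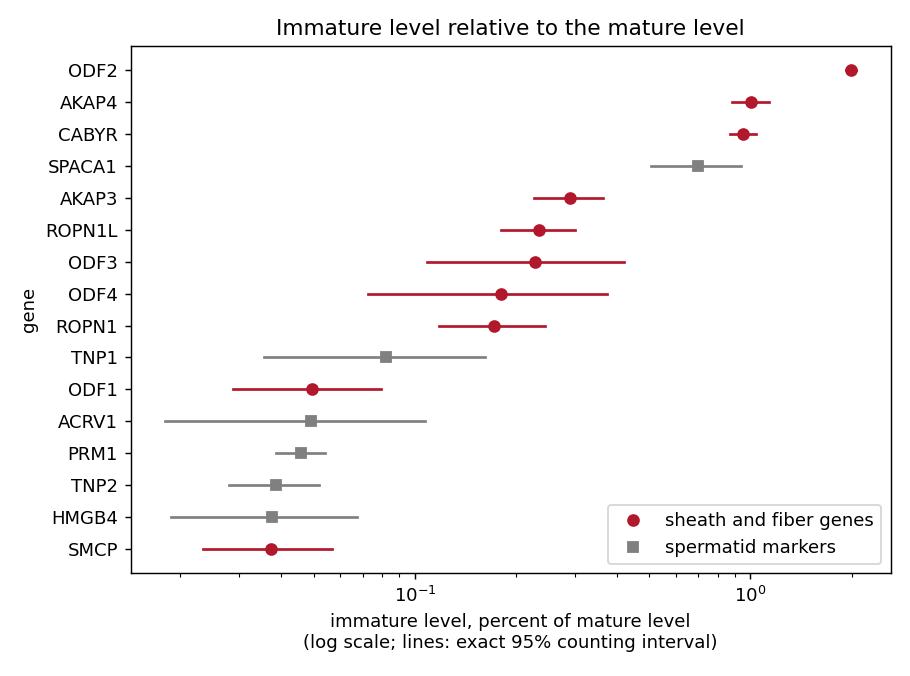
Immature level of each gene as a percent of its mature level (log scale), with exact 95% counting intervals, for the 10 sheath and fiber genes (circles) and 6 spermatid markers (squares). ODF2, AKAP4 and CABYR sit near 1% to 2%, and SMCP and ODF1 sit among PRM1, TNP2, HMGB4 and ACRV1 near 0.04% to 0.05%.

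The members also differed in how far the 3 bulls varied. SMCP, CABYR, ODF1 and ODF2 were lowest in mature replicate 1 and highest in mature replicate 3, with log2 ratios of replicate 3 to replicate 1 of 0.61, 0.49, 0.45 and 0.42. For the other 6 members this ratio was at most 0.26 (ROPN1L), and for ODF3 it was −0.05. Mature replicate 3 was the highest mature library in 7 of the 10 members, whereas it was so in 54.5% of the 4946 genes tested with a mature mean of 50 CPM or more. The median coefficient of variation over those genes was 8.08%, above the values of ODF3 (7.97%), AKAP3 (5.77%), ROPN1 (4.73%) and ODF4 (2.72%) and below those of AKAP4 (9.36%), ROPN1L (13.4%), ODF2 (14.5%), ODF1 (15.8%), CABYR (17.5%) and SMCP (20.9%).

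The same split ran through the spermatid markers. PRM1 and TNP2 had log2 ratios of mature replicate 3 to replicate 1 of 0.85 and 0.69, HMGB4 of 0.25 and SPACA1 of 0.06, while ACRV1 was at −0.03 and TNP1 at −0.24. The other marker lists did not all share 1 order over the bulls. Those of peritubular and stromal, Leydig and blood cells fell from mature replicate 1 to replicate 3, and the rest did not. For 6 blood cell genes the summed CPM was 14.2, 13.2 and 8.62 in mature replicates 1, 2 and 3. In mature replicates 1, 2 and 3, the summed CPM was 1146, 850 and 722 for 6 genes of peritubular and stromal cells (of which MYH11, of smooth muscle, had 280, 251 and 326) and 2861, 2251 and 1520 for 6 Leydig cell genes. It was 1404, 1569 and 1430 for the 6 Sertoli cell genes, 1643, 1876 and 1839 for 6 spermatocyte genes and 684, 664 and 730 for 6 spermatogonial genes. The part of tissue makeup in the spread of the members was not tested.

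**Figure D4:**
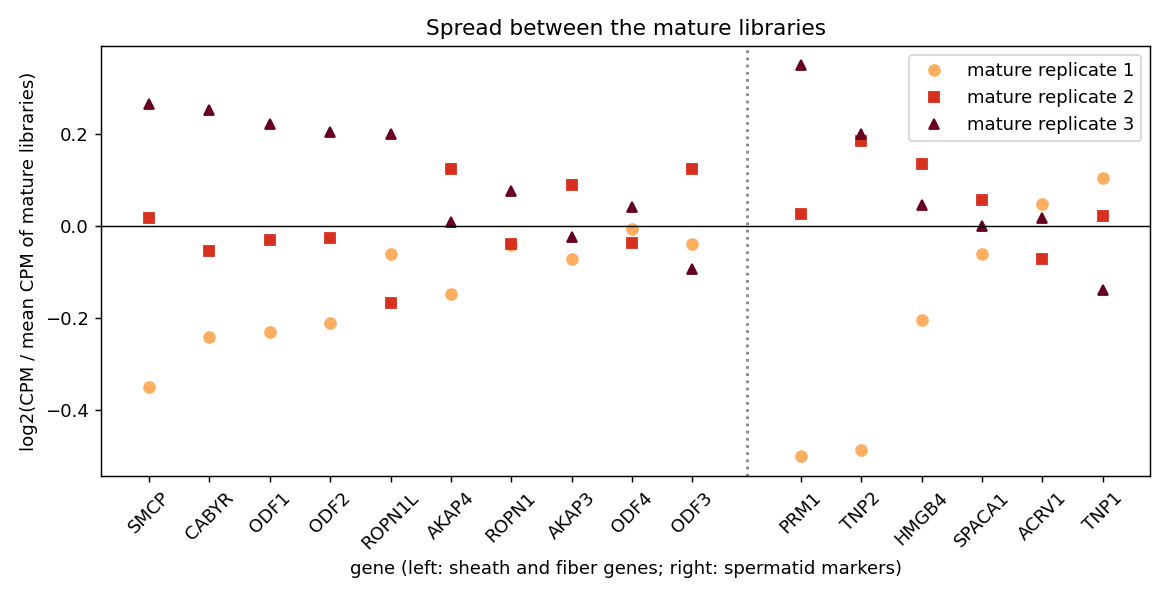
Log2 of each mature library's CPM over the mean of the 3 mature libraries, for the sheath and fiber genes (left of the dotted line) and the spermatid markers (right). SMCP, CABYR, ODF1 and ODF2 spread like PRM1 and TNP2, with replicate 1 lowest and replicate 3 highest, while AKAP3, ROPN1, ODF4 and ODF3 lie close to 0.

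Other genes of the same structures rose with the members. Of 12 genes of fibrous sheath residents and partners, all tested, 10 rose, where 31.7% of all genes tested were called higher. Their median log2 fold change was 6.48. FSCB, which binds CABYR (10.29, SE 0.43), CABS1, a calcium-binding protein of spermatids (10.97, SE 0.23), and PGK2, the testis phosphoglycerate kinase (10.04, SE 0.18), had the largest rises. FSCB had 175 ± 29.8 CPM in mature and 0.133 ± 0.175 CPM in immature testis, from 6 immature counts, and CABS1 had 632 ± 95 CPM in mature and 0.307 ± 0.0707 CPM in immature testis (SD, n = 3 each). ENO4, a sperm enolase, rose by less (2.74, SE 0.19). AKAP14, an anchor known from human airway cilia, was at 21.5 ± 4.33 CPM in mature and 26.6 ± 2.70 CPM in immature testis and was not called (−0.31, SE 0.18, adjusted p = 0.147, edgeR). RHPN1, a rhophilin to which ropporin binds in mouse, was at 7.79 ± 0.543 CPM in mature and 4.22 ± 1.13 CPM in immature testis and missed the threshold on the fold (0.89, SE 0.26, adjusted p = 0.0125, edgeR), which it passed without immature replicate 2 (1.05).

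Of 14 relatives and partners of the outer dense fiber proteins, all tested, 13 rose, against 31.7% of all genes tested. Their median was 6.51. SUN5, which anchors the tail to the sperm head, had 62.2 ± 1.15 CPM in mature and 0.0446 ± 0.0773 CPM in immature testis (SD, n = 3 each), with 2 immature counts. OAZ3, the testis antizyme (9.56, SE 0.18), and TSSK4, a kinase known in mouse to act on ODF2 (7.83, SE 0.19), rose too. KLC3, a kinesin light chain that binds ODF1 in rat (2.46, SE 0.26), and ODF3B (2.30, SE 0.22) rose by less. ODF2L, a relative of ODF2 at centrioles, was at 37.7 ± 3.42 CPM in mature and 35.5 ± 5.28 CPM in immature testis and was not called (0.09, SE 0.15, adjusted p = 0.615, edgeR), with a sign that turned with upper quartile factors (−0.12) and without immature replicate 3 (−0.03).

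Genes of the mitochondrial sheath, where SMCP belongs, rose in 9 of 10 cases, all tested, against 31.7% of all genes tested. Their median was 5.15. SPATA19, needed for the sheath in mouse, had 136 ± 23.5 CPM in mature and 0.0444 ± 0.0384 CPM in immature testis (SD, n = 3 each), with 2 immature counts. GK2, a testis glycerol kinase (10.27, SE 0.28), and SPATA18 (7.92, SE 0.32) rose as well. GPX4, the selenium enzyme that hardens the mitochondrial capsule, had 1191 ± 74.9 CPM in mature and 96.0 ± 13.8 CPM in immature testis (3.63, SE 0.14), and it also works in somatic cells. ARMC12 (3.28, SE 0.41) and VDAC3, a pore of the outer mitochondrial membrane (2.11, SE 0.10), rose, while VDAC2 was just under the threshold on the fold (0.93, SE 0.15). VDAC2 passed it without immature replicate 3 (1.08), mature replicate 2 (1.02) or mature replicate 3 (1.02). With all libraries it passed in DESeq2 (1.02), with relative log expression factors (1.02) and with no filter (1.0005).

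The subunits of PKA and the other kinase anchors listed did not move in 1 direction. Of 7 PKA subunits listed, PRKACG had no row in the gene table. Of the other 6, 2 rose and 2 fell, where 31.7% of all genes tested were called higher and 30.4% lower. The regulatory subunits moved apart: PRKAR2A had 32.2 ± 3.56 CPM in mature and 6.75 ± 2.0 CPM in immature testis (2.25, SE 0.23), and PRKAR2B had 21.9 ± 2.74 CPM in mature and 121 ± 16.3 CPM in immature testis (−2.46, SE 0.15; SD, n = 3 each). PRKAR1A (1.06, SE 0.13) was called higher but not with library totals alone (1.00) or upper quartile factors (0.86), and the catalytic subunit PRKACB fell (−1.96, SE 0.25). PRKACA was at 0.80 (SE 0.10) and PRKAR1B at 0.42 (SE 0.35), and neither was called.

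Of 12 other kinase anchors, all tested, 4 rose and 4 fell, with a median of −0.12. These counts were close to the shares over all genes tested, 31.7% called higher and 30.4% called lower. AKAP1, which tethers PKA to mitochondria, had 660 ± 114 CPM in mature and 132 ± 6.58 CPM in immature testis (2.32, SE 0.14), and AKAP6 (2.29, SE 0.20), AKAP12 (1.25, SE 0.18) and AKAP11 (1.10, SE 0.11) rose too. AKAP12 was not called with glmTreat, and AKAP11 was not called with glmTreat, with upper quartile factors (0.90) or without immature replicates 1 and 3 (0.98). AKAP5 (−2.42, SE 0.32), AKAP2 (−1.53, SE 0.23) and AKAP9 (−1.24, SE 0.13), a protein of the Golgi and centrosome, fell. AKAP13 (−1.03, SE 0.34) was called lower, yet not in DESeq2 (−0.95), limma-voom (−0.93) or without immature replicate 3 (−0.53), mature replicate 1 (−0.90), mature replicate 2 (−0.98) or mature replicate 3 (−1.09, where its adjusted p missed the threshold). The call was also lost with glmTreat, relative log expression factors (−0.95), the replicate block (−0.93) or no filter (−0.97). Without immature replicates 1 and 3 the log2 fold change of AKAP13 was −0.40. None of these 12 anchors reached the log2 fold change of AKAP4, and the largest among them was that of AKAP1.

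**Figure D5:**
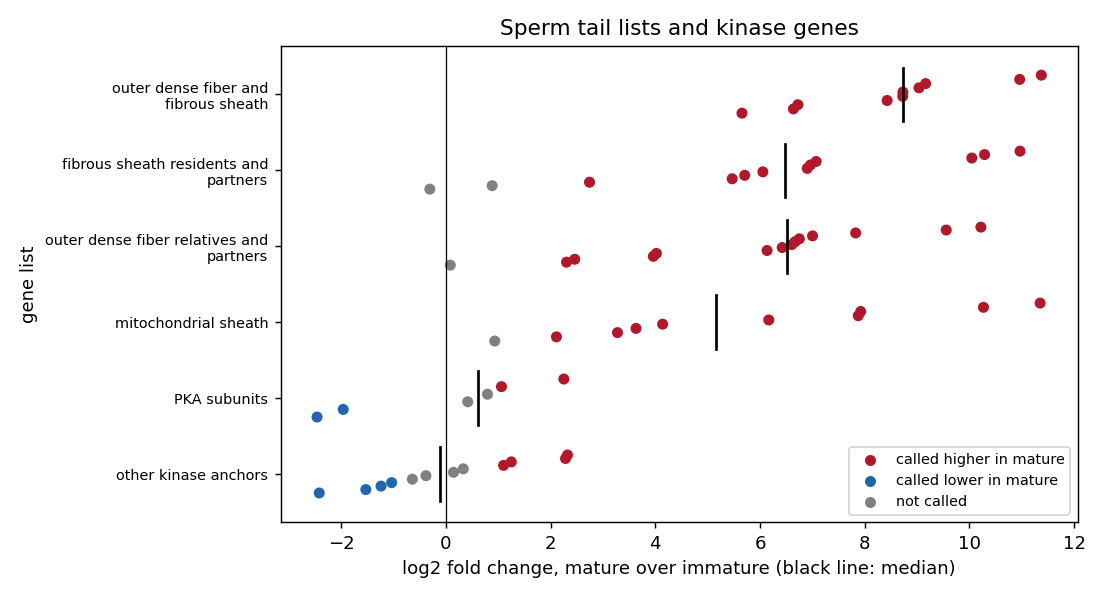
Log2 fold change, mature over immature, of every tested gene of 6 lists, red where called higher, blue where called lower and grey where not called, with a black line at each median. The medians are 8.73 for the fiber and sheath genes, 6.48, 6.51 and 5.15 for the other tail lists, 0.61 for PKA subunits and −0.12 for other kinase anchors.

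ROPN1L and SPA17 also occur in motile cilia, so genes of multiciliated cells are given as well. Of 5 genes of multiciliated cells, DEUP1 had no row, CDHR3 had 0 counts in all libraries and MCIDAS had 3 counts in mature and 3 in immature libraries. FOXJ1, the regulator of motile cilia, had 21.1 ± 6.82 CPM in mature and 2.40 ± 3.49 CPM in immature testis (SD, n = 3 each; 3.13, SE 1.02, adjusted p = 0.0275, edgeR), and was not called without mature replicate 1 (3.20) or mature replicate 3 (2.91), with glmTreat or without the filter (3.19). Its immature value came mostly from immature replicate 1, with 96, 7 and 5 counts in immature replicates 1, 2 and 3, and without that library its log2 fold change was 5.70. CCDC78 was at 0.62 (SE 0.19) and was not called. The part of ciliated cells in the levels of the members was not tested.

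Genes most like the members in pattern were sought by the root mean square difference between centred log2(CPM + 0.5) values over the 6 libraries. The nearest to the members' median profile were PDILT, a testis disulfide isomerase homolog (0.0506 log2 units), SAA4 (0.0761), GLT6D1 (0.0874), C8H8orf74 (0.0905) and C25H16orf90 (0.0976). The members themselves lay between 0.227 (AKAP3) and 1.41 (SMCP) from that profile. The measure depends on the small value added before taking logs: of these 5 genes, 1 was again among the nearest 5 with 0.1 CPM and 0 with 2 CPM.

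Overlap with other genes was looked up for the members. In the RefSeq table for ARS-UCD2.0, a later assembly than the one used for alignment, all 10 symbols matched and the spans of 4 members overlapped another gene. ODF3 overlapped NBAS, which had 1182, 1490 and 1421 counts in mature replicates 1, 2 and 3, against 1279, 1515 and 1501 in immature replicates 1, 2 and 3. Whether this overlap holds on the assembly used for alignment was not checked. LOC104974106, overlapping ODF1, had at most 8 counts in a library and LOC101904767, overlapping SMCP, at most 2. LOC112448346, overlapping ROPN1, had no row in the gene table. An effect of the overlaps on the counts of the members was not tested.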

How the data were processed

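mRNA of testis tissue was measured in 6 libraries, 3 per age and 1 per animal, after enrichment with oligo(dT) beads. Per the methods of the authors, reads passed Fast-QC and were mapped by Hisat2 to the assembly Btau_5.0.1. The deposited gene table holds unnormalized counts for each library. Software versions, the counting program, strand handling and the gene models used were not given in the sources used here. Not analysed here were the 2 pooled small RNA libraries and the authors' comparison tables, which hold group signals, log2 fold changes and FDR values.

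The main test was the robust quasi-likelihood test of edgeR 4.0.16 in R 4.3.3, after filterByExpr and TMM scaling, with Benjamini-Hochberg adjustment. It replaced the EBSeq of the authors, and limma 3.58.1 and DESeq2 1.42.0 served as alternatives. The thresholds (adjusted p under 0.05 and absolute log2 fold change above 1) are those of the study. Each SE was derived by dividing the size of the log2 fold change by the root of its F value. Ratios of member pairs used log2 of counts plus 0.5 and exact permutation tests in Python 3.11.15 with scipy 1.17.1. Library pairs of a group differed by 9.60 to 38.8 chi-square units per degree of freedom, so none was a copy.

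The members and lists were chosen with earlier results of these data known. Named genes were all members, the 3 highest and the 3 lowest of each list by log2 fold change, the spermatid markers, and the 5 genes nearest in pattern. GPX4, AKAP11, AKAP13, SPA17, MYH11 and the multiciliated cell genes were named outside this rule, after their values were seen. Also outside it were the spermatogonial genes, named as a list, and NBAS and the LOC genes, named for their overlap with members. Gene sequences and transcript lengths were not used here.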

Additional observations from a re-analysis of the deposited data

How the results depend on the processing

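The call of every member kept its direction and its side of the threshold in all 18 alternatives: relative log expression, upper quartile or total scaling, scaling without the 50 most abundant genes, no filter, 1 CPM in 3 libraries, DESeq2, limma-voom, each library left out, the replicate block, no fold threshold, glmTreat, and, chosen after seeing the data, immature replicates 1 and 3 left out together. Values ran from 11.08 to 11.78 for SMCP, from 8.67 to 10.18 for ODF4 and from 5.45 to 5.81 for ODF2. Upper quartile factors moved the median of all genes by −0.20. The number of PKA subunits called higher was 1 with glmTreat, 1 with library totals only and 1 with upper quartile factors, against 2 in the reported fit, and that of other kinase anchors was 2 with glmTreat, 3 with upper quartile factors and 3 without immature replicates 1 and 3, against 4. Same-numbered libraries came from different animals and did not deviate together (correlations of −0.0326, −0.0171 and −0.0148), and with the replicate block 10 members were again called higher. Depth limits the members with few immature counts, such as ODF4 (7 over the group), ODF3 (10), ODF1 (17) and SMCP (22).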
